A study of Mus musculus with 9 samples.

Results

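The genes described here encode the oligosaccharyltransferase, the enzyme complex of the endoplasmic reticulum that attaches N-linked sugar chains to new proteins, together with the enzyme that starts the synthesis of those chains. They are Dad1, Ddost, Rpn1, Rpn2, Stt3a, Stt3b, Tusc3, Magt1, Ostc and Dpagt1, and all 10 were measured among 19505 genes with a symbol, each by 1 probe set. They were chosen by name, with it known that Dad1 and Dpagt1 were far lower in hearts injected with cardiomyocytes than in hearts injected with saline. The difference between those groups is therefore a description for these genes and is given without a test. No p-value is given for Dad1 and Dpagt1 in the other comparisons either, since these use the same arrays. Where limma calls of these genes are counted below, the counts are a description.

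The tissue was the border of an infarct in hearts of female SCID mice, a strain without functional T and B lymphocytes and aged 80 to 100 days. In every group the left anterior descending coronary artery had been ligated, and the hearts were taken 4 weeks later. One group had received iCM, cardiomyocytes grown from induced pluripotent stem cells until they beat. Another had received iCM-Ex, the exosomes (small secreted vesicles) precipitated from iCM, and the control group saline. Each group had 3 biological replicates on an array each, 9 Clariom S arrays in all. The labels do not say how many cells or exosomes were injected, or of which species the stem cells were.

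N-glycosylation begins on the outer face of the endoplasmic reticulum membrane, where DPAGT1 places the first sugar on the lipid carrier dolichol. The ALG enzymes extend the chain, and the oligosaccharyltransferase moves it to asparagine residues of proteins entering the organelle. As worked out largely in human cells, the complex exists with either of 2 catalytic subunits, STT3A or STT3B. Heart muscle and fibroblasts rely on the pathway for ion channels, integrins, receptors and secreted matrix proteins.

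Values are the deposited log2 signals, so that 1 unit is a doubling. Differences are between group means with the moderated standard error (SE) of a limma fit over all genes, and ± beside a mean is the standard deviation (SD) of 3 arrays. The mean signal of 10 cardiomyocyte markers was 16.47 to 18.13 on every array, while single markers differed in both directions. Tnnt2, Myl2, Pln and Mb were at 18.63 or above on every array, near the highest deposited value, 19.93. Differences in them may therefore be hidden, and they hold the list mean steady in part. The fibroblast marker Dcn, at 19.86 or above, was as close to that value. In iCM-Ex relative to saline 4 of the 10 cardiomyocyte markers had higher and 6 lower means, from -2.61 (Ryr2) to 1.17 (Tnni3). Of 7 endothelial markers 5 had lower means there and 2 higher ones (median -0.61). In both lists 0 passed limma's threshold, with 2 of each at an unadjusted p at most 0.05 (15.2% of all genes). The mean of 7 measured lymphocyte and plasma cell markers was 4.32 to 4.87, below each array's median negative control, which was 4.76 to 5.56. Control separation, the median positive minus the median negative control, was 3.21, 2.47 and 3.15 in iCM replicates 1 to 3, 3.63, 4.01 and 3.67 in iCM-Ex and 3.27, 3.48 and 3.56 in saline. The groups did not overlap in control separation, which was lowest in iCM and highest in iCM-Ex. A fit with it as a covariate therefore cannot tell it apart from the group. Smaller differences, turned signs and fewer calls in that fit can follow from this alone. Markers of other tissues stood out on 3 arrays. Lung epithelium markers (8 genes) averaged 12.46 for iCM replicate 1, 9.04 for iCM-Ex replicate 3, 6.26 for iCM replicate 2 and at most 4.92 elsewhere. Of these 8 genes 4 were higher on every iCM array than on every saline array (13.8% of all genes were). Sftpc was 11.02 in iCM replicate 2 and 6.83 in iCM replicate 3, against at most 5.96 in saline. The mean of 9 skeletal muscle markers was 13.92 and that of 7 measured adipocyte markers 8.86 in iCM replicate 2, against at most 7.76 and 5.54 elsewhere. Red cell markers (2 measured) averaged 7.65, 9.45 and 7.73 in iCM, 8.43, 10.92 and 9.22 in iCM-Ex and 6.23, 7.51 and 7.36 in saline. This list did not enter the choice of the 3 arrays. Fibroblast markers (7 measured) averaged 15.42, 14.25 and 12.95 in iCM, 16.14, 15.62 and 15.12 in iCM-Ex and 14.28, 16.10 and 15.48 in saline. Macrophage markers (6 measured) averaged 11.47, 11.79 and 10.10 in iCM, 12.35, 13.11 and 12.89 in iCM-Ex and 9.69, 11.46 and 13.06 in saline. In iCM-Ex relative to saline all 6 macrophage markers (median 1.45) and 6 of 7 fibroblast markers (median 0.30) had higher means. Of these, 0 passed limma's threshold, with 2 and 0 at an unadjusted p at most 0.05 (15.2% of all genes). In iCM relative to saline all 7 fibroblast markers (median difference -1.19) and 5 of 6 smooth muscle and pericyte markers (median -0.72) had lower means. Of these lists 0 genes were past limma's threshold, with 0 and 2 at an unadjusted p at most 0.05 (20.5% of all genes). All 7 fibroblast markers and 5 of 6 macrophage markers had higher means in iCM-Ex than in iCM, with 0 past limma's threshold. There 3 of each list were at an unadjusted p at most 0.05 (14.5% of all genes). The part of these cells in the results below was not tested. Leaving out the 3 arrays leaves iCM replicate 3 as the only iCM array, so that values without them are that array's own and say nothing of the spread within iCM. That array had the lowest fibroblast mean (12.95) and the highest cardiomyocyte mean (18.13) of the 9. In this bulk tissue fewer cells of a type and less RNA per cell cannot be told apart.

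Dad1, Dpagt1, Stt3a, Ddost, Stt3b and Ostc had lower mean signals in iCM hearts than in saline hearts, with log2 differences between -6.35 (Dad1) and -0.96 (Ostc), and Magt1 differed by -0.42. The means of Rpn1, Rpn2 and Tusc3 were not lower. All 10 means were higher in iCM-Ex hearts than in iCM hearts. Relative to saline, the iCM-Ex means were higher for 5 genes and lower for 5.

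**Figure D1:**
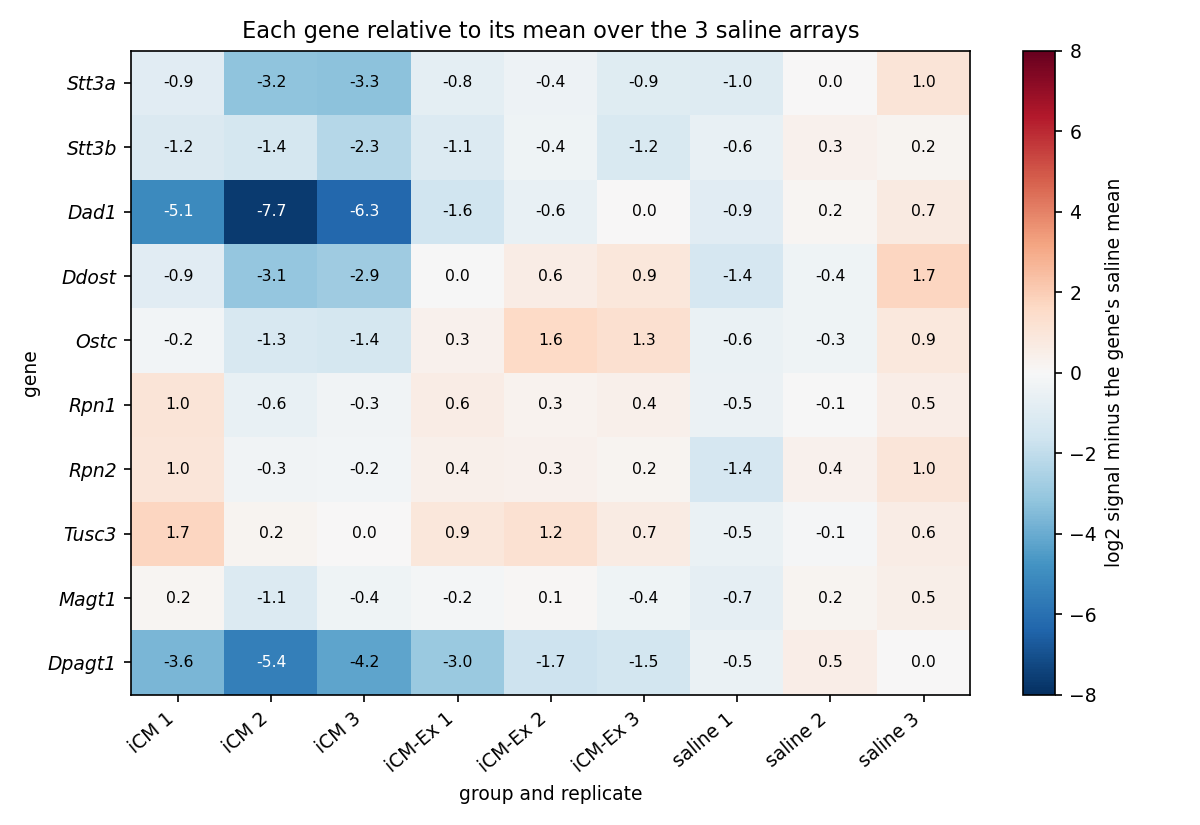
Signal of each gene (rows) on each array (columns, by group and replicate) minus that gene's mean over the 3 saline arrays, in log2 units, with blue for lower and red for higher. Dad1 lies at -5.10, -7.68 and -6.27 on the iCM arrays and Dpagt1 at -3.65, -5.44 and -4.22, while Rpn1, Rpn2 and Tusc3 reach 1.02, 0.99 and 1.73 in iCM replicate 1.

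DAD1 is a small membrane subunit found in both forms of the complex, named as a defender against apoptotic cell death. Its log2 signal was 12.89, 10.31 and 11.72 in iCM hearts and 16.36, 17.43 and 18.01 in iCM-Ex hearts, against 17.11, 18.16 and 18.69 in saline hearts. Every iCM array lay below every other array, and the iCM-Ex arrays overlapped those of saline. Dad1 averaged 11.64 ± 1.29 in iCM, 17.27 ± 0.83 in iCM-Ex and 17.99 ± 0.80 in saline (SD, n = 3 each). The iCM mean was lower than the saline mean by 6.35 on the log2 scale (difference -6.35, SE 0.67), an 81.4-fold lower signal. The iCM-Ex mean differed from saline by -0.72 (SE 0.67) and from iCM by 5.62 (SE 0.67). The range of Dad1 over the 9 arrays, 8.38, was wider than that of 99.8% of all genes, for which the median range was 1.60. This range holds the difference for which Dad1 was chosen, so nothing is read from its place among all genes. Leaving out any 1 array kept the difference between iCM and saline between -6.97 and -5.68. For iCM replicate 3 alone, the iCM array on which the marker means of other tissues did not stand out, it was -6.27. With control separation as a covariate it was -4.97, and the difference between iCM-Ex and iCM was 3.32. The highest Dad1 signal lay below the highest value in the table, 19.93.

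STT3A and STT3B are the catalytic subunits. STT3A sits at the protein channel and modifies proteins while they are being made, and STT3B also modifies sites that were skipped. Stt3a had signals of 15.28, 12.94 and 12.88 in iCM, 15.39, 15.80 and 15.23 in iCM-Ex and 15.17, 16.19 and 17.18 in saline. The low values were those of iCM replicates 2 and 3, while iCM replicate 1 lay within the saline range. The Stt3a difference was -2.48 (SE 0.66) for iCM minus saline and -0.71 (SE 0.66) for iCM-Ex minus saline. Stt3b had signals of 11.16, 10.94 and 10.04 in iCM, 11.26, 11.97 and 11.10 in iCM-Ex and 11.76, 12.64 and 12.57 in saline. Here the iCM arrays lay below all saline arrays and overlapped those of iCM-Ex. The Stt3b difference was -1.61 (SE 0.40) for iCM minus saline. It was -0.88 (SE 0.40, 95% interval -1.76 to 0.002) for iCM-Ex minus saline, which did not pass (limma adjusted p = 0.329). Between iCM-Ex and iCM neither gene passed, with a difference of 1.77 for Stt3a (95% interval 0.30 to 3.25, limma adjusted p = 0.244) and of 0.73 for Stt3b (-0.15 to 1.61, limma adjusted p = 0.455). Without iCM replicate 1 the Stt3a difference was 2.56 and passed (limma adjusted p = 0.0457). It was -0.01 once control separation entered the fit.

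DDOST, a membrane subunit of both forms, and OSTC, which joins the STT3A form to the protein channel, had the same order of group means. Ddost had signals of 11.59, 9.38 and 9.61 in iCM, 12.46, 13.05 and 13.37 in iCM-Ex and 11.10, 12.10 and 14.19 in saline. The iCM arrays lay below all iCM-Ex arrays, but iCM replicate 1 was above saline replicate 1. Ostc had signals of 10.18, 9.14 and 9.01 in iCM, 10.72, 12.02 and 11.70 in iCM-Ex and 9.84, 10.08 and 11.27 in saline, again with iCM below iCM-Ex on every array. For iCM-Ex minus iCM the difference was 2.76 (SE 0.77, limma adjusted p = 0.12) for Ddost and 2.04 (SE 0.49, limma adjusted p = 0.0819) for Ostc. Ostc passed without iCM-Ex replicate 1 (2.42, limma adjusted p = 0.0473). With control separation as a covariate the differences were 0.81 for Ddost and 0.90 for Ostc. For iCM minus saline they were -2.27 (SE 0.77) for Ddost and -0.96 (SE 0.49) for Ostc. Ostc was higher by 1.08 in iCM-Ex than in saline without passing (95% interval -0.01 to 2.17, limma adjusted p = 0.33), as was Ddost by 0.49 (-1.23 to 2.21, limma adjusted p = 0.818).

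**Figure D2:**
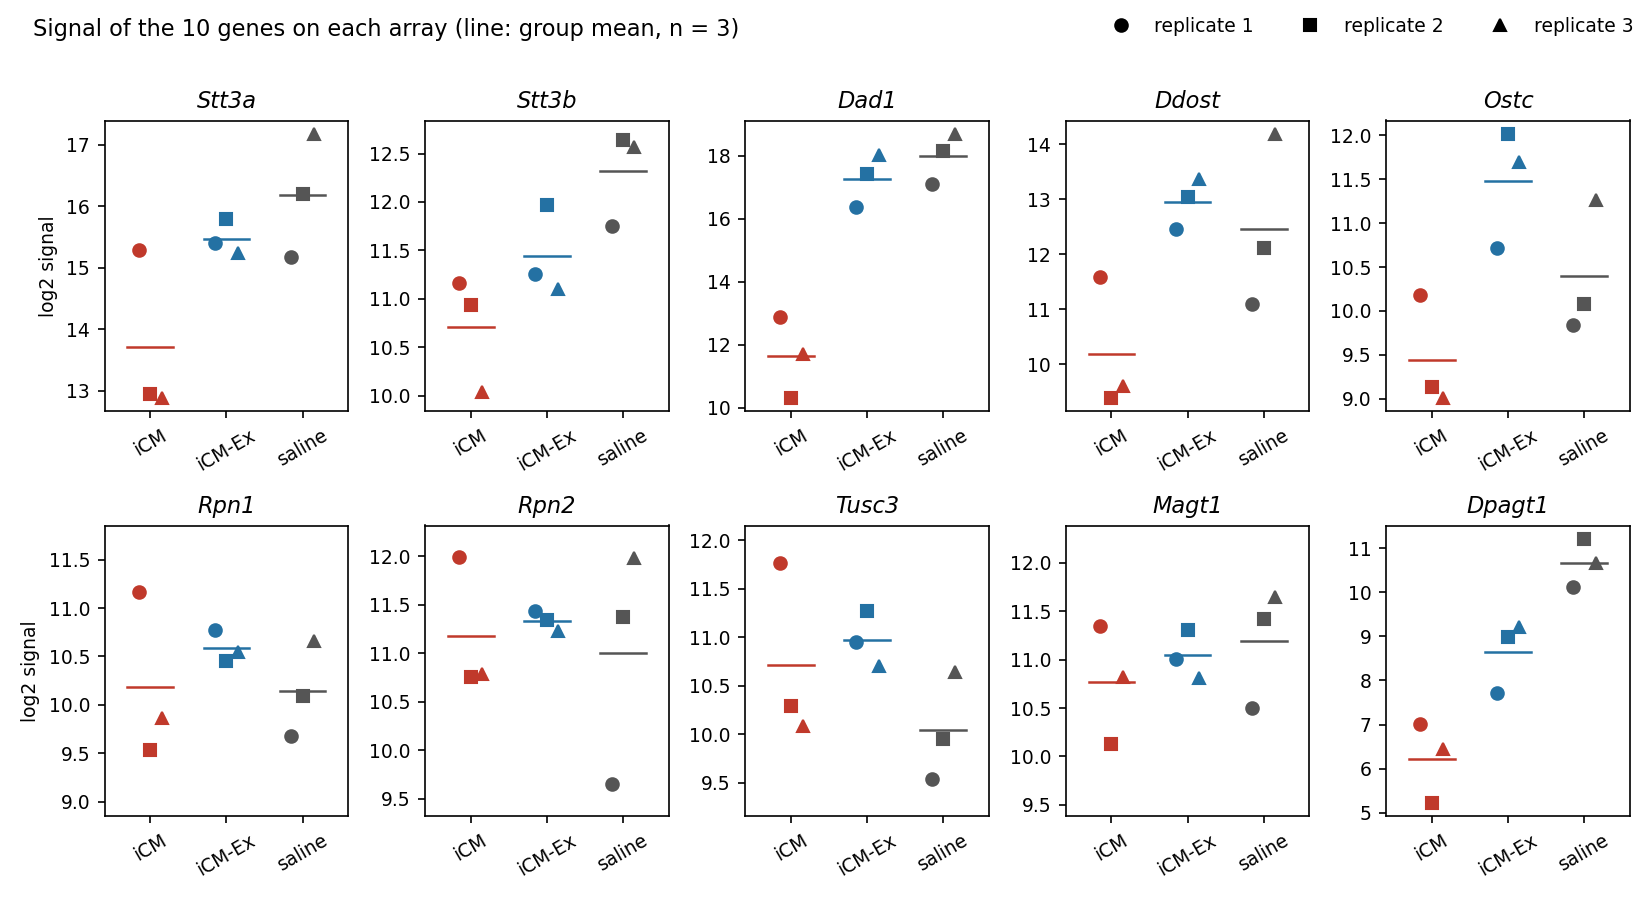
Log2 signal of the 10 genes on each array, with a point per array (the shape gives the replicate), a line at each group mean (n = 3) and a separate vertical axis per gene. The iCM arrays of Dad1 and Dpagt1 lie below all others, whereas iCM replicate 1 is the highest of the 9 arrays for Rpn1, Rpn2 and Tusc3.

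The promoters of Dad1, Ddost and Stt3a are shown beside that of Rpn1. Mean signals of Dad1, Ddost and Stt3a were lower in iCM hearts than in saline hearts, and that of Rpn1 was not. For Ddost and Stt3a, iCM replicate 1 lay within the saline range. The sequences are the 250 bases before the annotated start in RefSeq, build GRCm38.p6, written 5′ to 3′ on the gene's strand. The RefSeq table held such sequence for 7 of the 10 genes (8 windows, with 2 starts for Rpn2), and not for Dpagt1, Tusc3 and Ostc. Capitals mark the letters CCAAT or, on the other strand, ATTGG, the CCAAT box. Adjacent capitals in Dad1 are a match on each strand that overlap.
Dad1 (chr14:54253930-54254179, minus strand): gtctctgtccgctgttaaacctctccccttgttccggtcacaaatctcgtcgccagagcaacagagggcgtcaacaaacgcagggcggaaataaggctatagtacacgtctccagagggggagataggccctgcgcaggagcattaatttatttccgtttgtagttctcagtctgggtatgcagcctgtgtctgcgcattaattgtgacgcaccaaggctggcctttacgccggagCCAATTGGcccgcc
Ddost (chr4:138304488-138304737, plus strand): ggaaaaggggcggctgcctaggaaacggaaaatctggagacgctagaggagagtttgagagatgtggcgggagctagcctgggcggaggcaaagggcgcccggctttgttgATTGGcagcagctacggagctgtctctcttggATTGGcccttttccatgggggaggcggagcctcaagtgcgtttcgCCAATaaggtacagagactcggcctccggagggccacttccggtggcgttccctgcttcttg
Stt3a (chr9:36767623-36767872, minus strand): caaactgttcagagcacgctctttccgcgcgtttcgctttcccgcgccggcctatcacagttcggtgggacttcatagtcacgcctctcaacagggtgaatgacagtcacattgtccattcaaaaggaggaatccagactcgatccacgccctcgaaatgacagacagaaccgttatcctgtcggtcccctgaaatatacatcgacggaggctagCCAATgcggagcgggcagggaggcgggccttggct
Rpn1 (chr6:88084223-88084472, plus strand): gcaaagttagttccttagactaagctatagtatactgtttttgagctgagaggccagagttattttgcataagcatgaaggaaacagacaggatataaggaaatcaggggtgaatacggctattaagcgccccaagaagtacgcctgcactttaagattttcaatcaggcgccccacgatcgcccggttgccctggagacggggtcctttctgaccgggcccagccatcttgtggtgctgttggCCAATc
The CCAAT box was found on either strand in 7 of these 8 windows and in 33.8% of all 32851 windows of the same length. In Dad1 the matches began 14 and 11 bases before the start, in Stt3a 35 bases and in Ddost 139, 107 and 62 bases. Rpn1 held 1 match, 6 bases before the start. The endoplasmic reticulum stress element (a CCAAT box and the letters CCACG with 9 bases between), through which the unfolded protein response is known to act, was in 0 of the 8 windows and in 0.113% of all windows. The letters TGACGTGG, a core bound by factors of the same response, were in 0 of the 8 and in 0.563% of all.

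RPN1 and RPN2, the ribophorins, are large subunits of both forms of the complex. Rpn1 had signals of 11.17, 9.54 and 9.87 in iCM, 10.77, 10.45 and 10.55 in iCM-Ex and 9.68, 10.09 and 10.66 in saline. Rpn2 had signals of 11.99, 10.75 and 10.79 in iCM, 11.44, 11.35 and 11.23 in iCM-Ex and 9.65, 11.38 and 11.99 in saline. The groups overlapped for both genes, and the iCM-Ex arrays were the most alike, within 0.32 for Rpn1 and 0.21 for Rpn2. The iCM minus saline difference was 0.04 (95% interval -0.91 to 0.99) for Rpn1 and 0.17 (-1.06 to 1.41) for Rpn2. Both signs turned without iCM replicate 1, to -0.44 and -0.23, and without saline replicate 1, to -0.19 and -0.50. That of Rpn1 was -0.04 with arrays centred on their medians. Neither gene passed between iCM-Ex and saline (limma adjusted p = 0.682 for Rpn1 and 0.828 for Rpn2) or between iCM-Ex and iCM (0.755 and 0.943).

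TUSC3 and MAGT1 are alternative thioredoxin-like subunits of the STT3B form, which act on protein disulfides near the sugar site. Tusc3 had signals of 11.77, 10.29 and 10.09 in iCM, 10.96, 11.27 and 10.70 in iCM-Ex and 9.54, 9.95 and 10.64 in saline. The iCM-Ex arrays were all above the saline arrays, the nearest values being 10.70 and 10.64, and the difference of 0.93 (SE 0.46) did not pass (95% interval -0.09 to 1.96, limma adjusted p = 0.377). Tusc3 was 0.67 (SE 0.46) higher in iCM than in saline, and 0.14 without iCM replicate 1. Magt1 had signals of 11.35, 10.12 and 10.82 in iCM, 11.01, 11.30 and 10.81 in iCM-Ex and 10.50, 11.42 and 11.64 in saline. Its groups overlapped, with differences of -0.42 for iCM minus saline and -0.14 for iCM-Ex minus saline (SE 0.40 each, limma adjusted p = 0.899 for iCM-Ex minus saline). Between iCM-Ex and iCM the intervals were -0.76 to 1.28 for Tusc3 and -0.60 to 1.16 for Magt1 (limma adjusted p = 0.877 and 0.833).

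DPAGT1 is not a subunit of the transferase but the first enzyme of the lipid-linked chain, and the target of the antibiotic tunicamycin. Dpagt1 had signals of 7.02, 5.22 and 6.45 in iCM and 7.72, 8.99 and 9.21 in iCM-Ex, against 10.12, 11.21 and 10.67 in saline. The 3 groups did not overlap, with iCM lowest and saline highest. The means were 6.23 ± 0.92 in iCM, 8.64 ± 0.81 in iCM-Ex and 10.67 ± 0.55 in saline (SD, n = 3 each). The differences were -4.44 (SE 0.53) for iCM minus saline, -2.03 (SE 0.53) for iCM-Ex minus saline and 2.41 (SE 0.53) for iCM-Ex minus iCM. In iCM replicate 2 the signal was below that array's median negative control of 5.56, and 43% of negative controls were dimmer, so the size of the iCM difference is uncertain. In iCM replicates 1 and 3, 84% and 74.3% were dimmer, and in saline at least 97.7%. For iCM replicate 3 alone the difference from saline was -4.22, and with control separation as a covariate the iCM minus saline difference was -3.38. The iCM-Ex minus iCM difference was 0.64 with that covariate. Dpagt1 thus differed from Dad1 in the iCM-Ex hearts, where Dad1 lay within the saline range on 2 arrays and Dpagt1 lay below it on all 3.

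**Figure D3:**
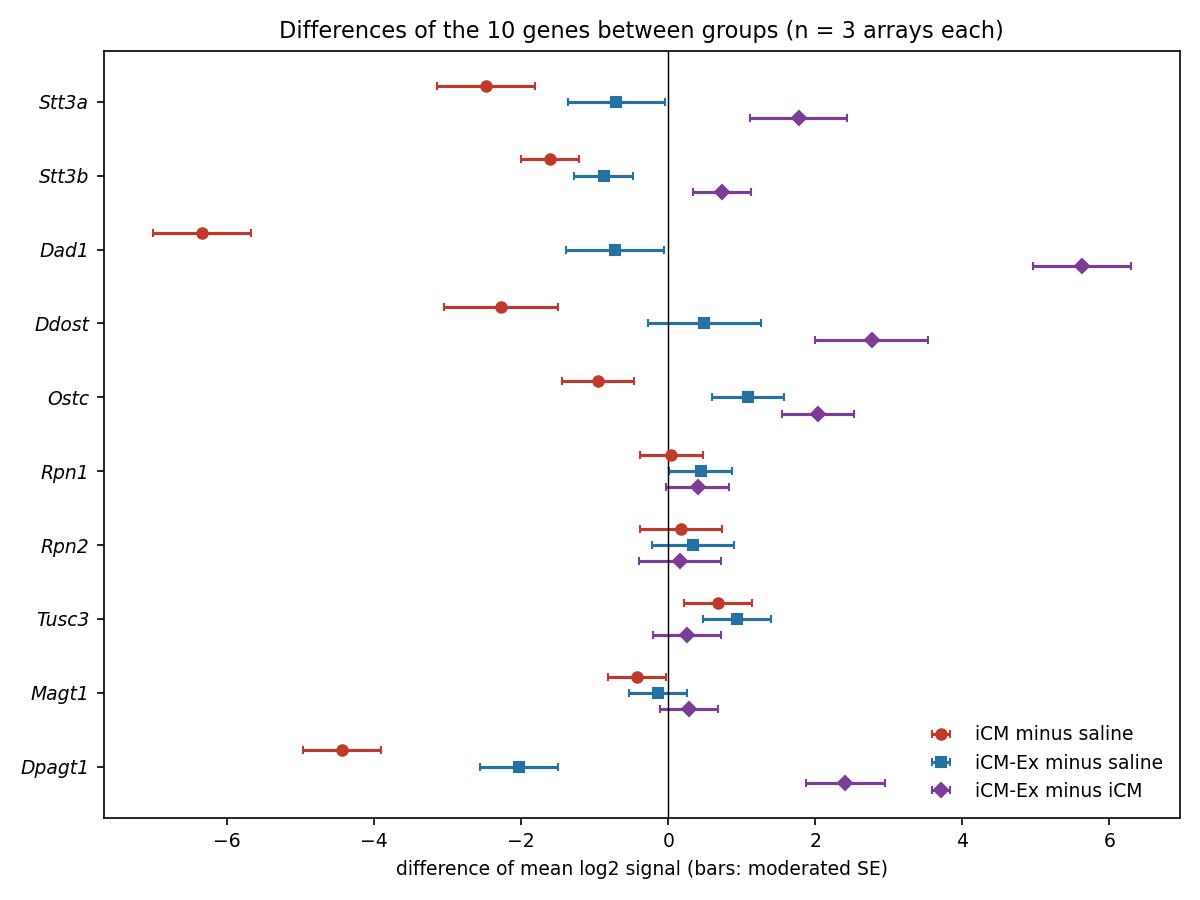
Difference of mean log2 signal (horizontal axis) for each gene in the 3 comparisons, with bars of 1 moderated SE to each side (n = 3 arrays per group). Dad1 shows -6.35 for iCM minus saline and 5.62 for iCM-Ex minus iCM, while the iCM-Ex minus saline differences lie between -2.03 and 1.08.

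By the threshold of limma adjusted p at most 0.05 over all genes, 2 of the 10 genes, Dad1 and Dpagt1, were called lower for iCM minus saline, where 3.67% of all genes were called (2.33% lower and 1.34% higher). These 2 had led to the choice of the list, so nothing is read from that count. For iCM-Ex minus saline limma called 0 of 10, against 0.349% of all genes (0.22% higher and 0.128% lower). At an unadjusted p at most 0.05 there was 1 of the 10, against 15.2% of all genes. That gene was Dpagt1, known from the same saline arrays, so nothing is read from it. For iCM-Ex minus iCM limma called 1 of 10, Dad1, as higher, against 1.07% of all genes (0.795% higher and 0.272% lower). This comparison uses the iCM arrays on which Dad1 was known to be low, so nothing is read from that count either. At an unadjusted p at most 0.05 there were 5 of 10 for iCM minus saline (20.5% of all genes) and 5 of 10 for iCM-Ex minus iCM (14.5%). Dad1 and Dpagt1 are in both counts, so nothing is read from them. The Dad1 call for iCM-Ex minus iCM was lost without iCM-Ex replicate 2 or 3, with only the groups compared or with control separation as a covariate. In that comparison 3 of the 10 genes were called without iCM replicate 1 or iCM-Ex replicate 1, when 376 and 401 of all genes were called. The counts of separated arrays that follow hold Dad1, Dpagt1 or both and are likewise a description. Arrays of iCM and saline were fully separated for 3 of 10 genes, all lower in iCM (24% of all genes, 10.2% lower and 13.8% higher). Arrays of iCM-Ex and saline were separated for 2, Tusc3 higher and Dpagt1 lower (21.7% of all genes, 12.2% higher and 9.53% lower). Arrays of iCM-Ex and iCM were separated for 4, Dad1, Dpagt1, Ddost and Ostc, all higher (20.2% of all genes, 10.2% higher and 10% lower). The median difference of the 10 was -1.28 for iCM minus saline, 0.09 for iCM-Ex minus saline and 1.25 for iCM-Ex minus iCM, where the medians over all genes were 0.08, 0.04 and -0.04. All 10 were higher in iCM-Ex than in iCM, as were 46.1% of all genes. This count included Rpn2, whose sign turned to -0.09 under quantile normalisation, and with control separation as a covariate 5 of the 10 (Magt1, Rpn1, Rpn2, Stt3a and Tusc3) turned. The comparisons share groups, so their values are not independent.

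Single arrays moved many of these genes together. Replicate 2 of iCM, the array with the lowest control separation and with muscle and fat markers, had the lowest value of all 9 arrays for 5 of the 10 genes, and iCM replicate 3 for 3. Saline replicate 3 had the highest value for 4, and iCM replicate 1, the array with lung markers, for 3. The mean over the 10 genes was 11.44, 9.86 and 10.13 in iCM, 11.81, 12.36 and 12.19 in iCM-Ex and 11.45, 12.32 and 12.95 in saline. Without the 3 arrays with markers of other tissues, which leaves 1 iCM and 2 iCM-Ex arrays, some differences moved by over 1.5 times. For iCM minus saline Tusc3 was then at 0.04, Rpn1 at -0.28 and Rpn2 at -0.21. For iCM-Ex minus iCM Stt3a was at 2.72, Stt3b at 1.57, Tusc3 at 1.03, Rpn1 at 0.75 and Rpn2 at 0.60. For iCM-Ex minus saline Dad1 was at -1.09, Ddost at 0.28 and Magt1 at -0.03. The part of marker content and control separation in these differences was not tested beyond the values above.

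Across the 9 arrays, which share 3 groups, Pearson correlations among the 10 genes ran from -0.26 (Dpagt1 with Tusc3) to 0.93 (Dad1 with Dpagt1). Ddost correlated at 0.91 with Ostc and at 0.90 with Stt3a, and Rpn1 at 0.85 with Tusc3 and 0.81 with Rpn2. Dad1 correlated at 0.87 with Stt3a and Ddost, at 0.16 with Rpn2 and at -0.05 with Tusc3. The 5 genes most like Dad1 among the other 19504 were Dcakd (r = 0.993), Rpl6 (0.988), Tmem47 (0.9843), Ift20 (0.9835) and Mgat2 (0.9833). Dpagt1 was at rank 112 of that order, Stt3a at 349 and Ddost at 373. Rpl6, which encodes a ribosomal protein, had signals of 14.48, 13.43 and 14.29 in iCM, 15.55, 16.23 and 16.50 in iCM-Ex and 15.91, 16.41 and 16.27 in saline. As in Dad1, its iCM arrays lay below all others. These correlations describe how the same arrays order the genes and carry no test.

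The 10 genes lie on 8 chromosomes, with Dpagt1, Stt3a and Stt3b on chromosome 9. The nearest measured gene on each side of every member, 20 in RefSeq gene order, was looked up, and these genes were named after their values were seen. Of the 20, 8 had lower means in iCM than in saline (44.5% of all genes) and 12 higher. All iCM arrays lay below saline for 3 of them (10.2% of all genes) and above saline for 5 (13.8%), which were Mroh8 beside Rpn2, Gadl1 beside Stt3b, Sgcz beside Tusc3, and Atrx and Cox7b beside Magt1, with differences of 0.55 to 1.25. The 3 lower ones were Abhd4 beside Dad1, a lipase-family gene that differed by -3.23 (SE 0.65), Rab7 beside Rpn1, a GTPase gene of late endosomes (-2.33, SE 0.41), and Ei24 beside Stt3a (-0.76, SE 0.38). Rpn1 itself differed by 0.04, and the gene on the other side of Dad1, Olfr1507, by 0.42 (SE 0.34).

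Other subunits of the transferase behaved unevenly. Ost4, a very small subunit bound to STT3, had signals of 17.82, 15.38 and 16.43 in iCM, 18.39, 19.28 and 19.29 in iCM-Ex and 17.92, 18.63 and 19.09 in saline. All its iCM arrays lay below those of the other groups, with a 95% interval of -3.28 to -0.73 (limma adjusted p = 0.0824) for iCM minus saline and a difference of 2.45 (SE 0.57, limma adjusted p = 0.0746) for iCM-Ex minus iCM. Krtcap2, whose product joins the STT3A form, had signals of 15.32, 12.84 and 14.62 in iCM, 15.32, 15.59 and 16.11 in iCM-Ex and 14.91, 15.15 and 16.72 in saline, with overlap throughout. Tmem258 ran the other way, at 12.23, 10.81 and 12.84 in iCM and 12.86, 13.59 and 12.78 in iCM-Ex, against 7.89, 7.99 and 11.34 in saline. Its iCM-Ex arrays were all above saline, and the difference of 4.00 (SE 0.85, limma adjusted p = 0.0829) passed without saline replicate 3 (5.14, limma adjusted p = 0.0109).

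Of 82 further genes of the pathway, these 3 subunits included, 78 were measured. In iCM relative to saline 54 of them had lower means (69.2%, against 44.5% of all genes), the median was -0.42, 3 fell (2.33% of all genes did) and 2 rose (1.34%). For iCM-Ex minus iCM 55 were higher (70.5%, against 46.1% of all genes), the median was 0.36, 2 rose (0.795% of all genes did) and 0 fell (0.272%). For iCM-Ex minus saline 43 were lower (55.1%, against 46.5% of all genes), the median was -0.09, and 0 passed limma's threshold, with 12 of 78 at an unadjusted p at most 0.05, as for 15.2% of all genes. The lists were chosen with earlier results of these data known. Over all genes the median signal was 5.44 to 5.70 per array, close to the median negative control (4.76 to 5.56). A share among genes of like signal was not computed, and the part of signal level in these shares was not tested. The 7 calls are of 5 genes. With control separation as a covariate all were lost but that of Mgat2 for iCM minus saline. With 1 iCM array left, without the 3 arrays with markers of other tissues, none of the 7 passed, while the Mgat2 differences were -3.45 for iCM minus saline and 3.42 for iCM-Ex minus iCM.

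Dolichol and sugar donor genes, 17 measured, supplied 3 of the 5 calls for iCM minus saline (3.67% of all genes were called), with 9 of the 17 lower and a median of -0.01. Gmppa, which encodes the regulatory partner of the enzyme that makes GDP-mannose, had signals of 5.79, 4.66 and 6.02 in iCM and 7.35, 7.99 and 8.52 in iCM-Ex, against 8.71, 8.40 and 8.76 in saline. It fell by 3.13 (SE 0.41) in iCM relative to saline (limma adjusted p = 0.00734) and was past the threshold whichever single array was left out (highest 0.034). Gmppa rose by 2.46 (SE 0.41) in iCM-Ex relative to iCM (limma adjusted p = 0.0352). That call was lost on leaving out iCM-Ex replicate 2 (limma adjusted p = 0.141) or 3 (0.19), iCM replicate 2 (0.087) or 3 (0.0567), or saline replicate 2 (0.0689). Its mean in iCM, 5.49, was near the negative controls, so the size is uncertain. Dolk, the dolichol kinase, fell by 2.02 (SE 0.36) in iCM relative to saline (limma adjusted p = 0.0186). The call was lost on leaving out iCM replicate 2 (0.0706) or saline replicate 2 (0.0793) or 3 (0.0515). Pmm1, a phosphomannomutase, rose by 1.31 (SE 0.25) in iCM relative to saline, at 7.58, 7.20 and 7.44 against 6.28, 5.99 and 6.01 (limma adjusted p = 0.0236). Leaving out iCM replicate 2 (limma adjusted p = 0.0544) or 3 (0.0538), or saline replicate 2 (0.0937) or 3 (0.0624), ended this call. The list's smallest p for iCM-Ex minus saline was that of Dpm3, which anchors dolichol-phosphate-mannose synthase (2.07, SE 0.48, limma adjusted p = 0.0983).

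The ALG enzymes and their flipping factors that build the chain after DPAGT1, 11 measured, were lower in iCM than in saline for 9 genes (median -0.66). Of the 11, 0 were past limma's threshold and 4 at an unadjusted p at most 0.05 (20.5% of all genes). The smallest p for iCM-Ex minus saline was that of Alg8 (-0.35, limma adjusted p = 0.646). Alg14, the partner of the second sugar transferase, had signals of 7.18, 5.72 and 5.85 in iCM, 8.03, 8.13 and 7.92 in iCM-Ex and 7.40, 7.84 and 9.14 in saline. It differed by -1.88 (SE 0.50, limma adjusted p = 0.0654) for iCM minus saline. Of 17 folding and quality control genes 13 were lower in iCM than in saline (median -0.38). Of the 17, 0 passed limma's threshold, with 4 at an unadjusted p at most 0.05 (20.5% of all genes). Calr, the lectin chaperone calreticulin, had signals of 15.41, 12.60 and 14.69 in iCM, 16.05, 16.97 and 16.85 in iCM-Ex and 15.58, 17.13 and 18.54 in saline (iCM minus saline -2.85, SE 0.80, limma adjusted p = 0.0798). Its membrane-bound relative Canx, with the list's smallest p for iCM-Ex minus saline, differed there by -0.64 (SE 0.28, limma adjusted p = 0.321).

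Golgi processing genes, 14 measured, were lower in iCM than in saline for 12 (median -0.70). Mgat2, the transferase that adds the second antenna of complex N-glycans, had signals of 7.39, 5.52 and 6.54 in iCM and 9.71, 10.22 and 9.80 in iCM-Ex, against 9.80, 10.08 and 10.09 in saline. It fell by 3.51 (SE 0.42) in iCM relative to saline (limma adjusted p = 0.00439, highest 0.0325 on leaving out an array). It rose by 3.42 (SE 0.42) in iCM-Ex relative to iCM (limma adjusted p = 0.0126), and its p was 0.0919 without iCM-Ex replicate 2 and 0.085 without iCM-Ex replicate 3. In iCM replicate 2 its signal was below the median negative control of 5.56, so the size is uncertain. Mgat2 differed by -0.08 between iCM-Ex and saline. Between iCM-Ex and saline the list's smallest p was that of Mgat5 (-1.06, SE 0.31, limma adjusted p = 0.153).

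Genes of the protein channel and signal peptidase, 16 measured, were lower in iCM than in saline for 9 (median -0.39) and higher in iCM-Ex than in iCM for 11 (median 0.69). Sec61g, a small channel subunit, rose in iCM relative to saline by 2.28 (SE 0.51, limma adjusted p = 0.0398), with signals of 13.81, 13.96 and 13.18 against 10.38, 11.58 and 12.15. Leaving out any array other than saline replicate 3 or iCM-Ex replicate 1 raised its p above the threshold, to 0.127 at most. In iCM-Ex it had signals of 12.75, 13.89 and 14.24, and differed from saline by 2.25 (SE 0.51, limma adjusted p = 0.0925).

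**Figure D4:**
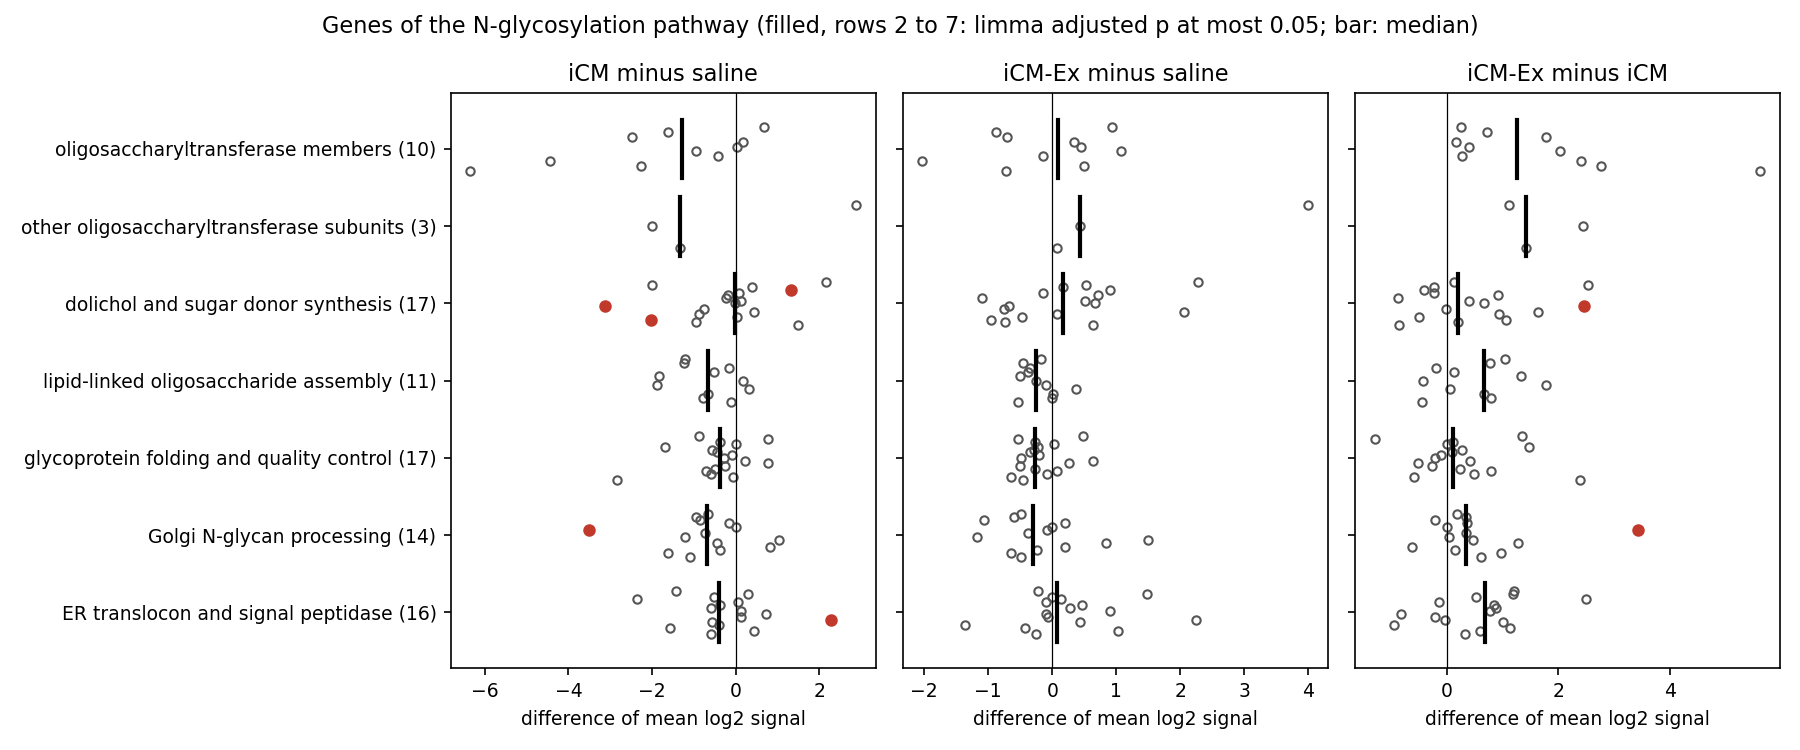
Difference of mean log2 signal for each gene of the pathway in the 3 comparisons, by list (number measured in brackets), with a bar at the list's median. Filled points passed limma's threshold (the top row is shown without calls), and list medians for iCM minus saline lie between -1.34 and -0.01.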

How the data were processed

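RNA of 9 hearts was measured on 1 array each. The authors deposited a log2 signal for each probe set. Per the submitters' processing notes, Affymetrix Expression Console was used, with its settings and version not given in the sources used here. That the scale is log2 follows from the range, 2.25 to 19.93. Of 28846 rows 6640 were controls. The brightest row of each annotated symbol was kept, 19505 genes.

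All arrays entered 1 limma fit (limma 3.58.1, R 4.3.3) with a mean per group, and p-values were adjusted by Benjamini-Hochberg over all genes. On simulated data with each gene's real spread within groups, the fit recovered 62% of log2 changes of 2 and 94% of changes of 3 for iCM minus saline. Of its 134 calls 7 were false. The simulated noise was independent between genes, whereas single real arrays moved many genes together, so recovery in the real data is not known from these shares. The number of arrays limits precision, and with 3 arrays against 3 exact permutation cannot give a p under 0.1.

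The members and lists were chosen with earlier results of these data known. Named in the text are all members, pathway genes past the threshold, each pathway list's smallest p for iCM-Ex minus saline and the 5 genes most like Dad1. Others named (Ost4, Krtcap2, Alg14, Calr and the neighbours) were chosen after their values were seen. Alternatives changed normalisation, filter, rows, variance model, samples, block, covariate and arrays.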

Additional observations from a re-analysis of the deposited data

How the results depend on the processing

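Besides the reported fit, 18 alternatives were run, 9 of them leaving out an array. Control separation did not overlap between the groups, so fewer calls with it as a covariate can follow from that alone. The split of calls moved with quantile normalisation, to 418 higher and 442 lower for iCM minus saline (48.6% higher, against 36.6%) and to 53.2% higher of 299 calls for iCM-Ex minus iCM (against 74.5%), and with arrays centred on their medians, to 53.1% of 81 for iCM-Ex minus saline (against 63.2%). The limma count for iCM minus saline, 716, was 279 with only the groups compared, 338 under the replicate block, 33 with control separation as a covariate and 6 without the 3 arrays with markers of other tissues, an alternative chosen after seeing the data that leaves 1 iCM array, assumed to vary like the other groups, so that fewer calls follow from its construction. The count for iCM-Ex minus iCM, 208, was 327 with median centring, 352 among genes above the median signal, 118 with an intensity trend, 13 with only the groups compared, 18 under the replicate block, and 0 with the covariate (1252 genes at an unadjusted p at most 0.05) and without the 3 arrays (1872). The count for iCM-Ex minus saline, 68, was 12 with the trend, 1 with only the groups compared, 0 under the replicate block (2755 at an unadjusted p at most 0.05), 5 with the covariate and 0 without the 3 arrays (1911).

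Leaving out an array gave 126 (without saline replicate 2) to 803 genes for iCM minus saline, with 196, 423, 462 and 436 without iCM replicate 2, saline replicate 3 and iCM-Ex replicates 2 and 3. It gave 0 (without iCM-Ex replicate 2, 2109 at an unadjusted p at most 0.05) to 401 (without iCM-Ex replicate 1) for iCM-Ex minus iCM, with 1 without iCM-Ex replicate 3, 376, 41 and 43 without iCM replicates 1, 2 and 3, and 26 without saline replicate 2. For iCM-Ex minus saline it gave 0 to 163 (without saline replicate 3), with 12 and 31 without iCM replicates 1 and 2, 1 without saline replicate 1, and 0 without iCM-Ex replicates 2 or 3, iCM replicate 3 or saline replicate 2 (2693, 1915, 3012 and 2273 at an unadjusted p at most 0.05).

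Of the 10 genes, those called for iCM minus saline numbered 4 with median centring and among genes above the median signal (Stt3a and Stt3b joined), 1 with the covariate, 0 without the 3 arrays (5 at an unadjusted p at most 0.05), and 2 to 3 on leaving out an array. For iCM-Ex minus iCM they numbered 2 with median centring and among genes above the median signal, 0 with only the groups compared (5 at an unadjusted p at most 0.05), with the covariate (1) and without the 3 arrays (6), and 0 to 3 on leaving out an array. For iCM-Ex minus saline they numbered 0 under all 18 alternatives, with 1 to 4 at an unadjusted p at most 0.05. Calls over all genes for iCM minus saline rose as well, from 716 to 894 with median centring and to 757 among genes above the median signal. For iCM-Ex minus iCM they rose from 208 to 327 and 352. No share over all genes stands beside the counts of the 10, so nothing is read from these counts.

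Signs turned with the covariate for Ddost (-0.29) and Rpn2 (-0.16) in iCM-Ex minus saline, for Magt1 in iCM minus saline (0.36), and in iCM-Ex minus iCM for Magt1 (-1.03), Rpn1 (-0.63), Rpn2 (-1.08), Stt3a (-0.013) and Tusc3 (-0.80). Without the 3 arrays Rpn1 (-0.28) and Rpn2 (-0.21) turned in iCM minus saline. Median centring turned Rpn1 there (-0.038), and quantile normalisation turned Rpn2 in iCM-Ex minus iCM (-0.092). On leaving out an array, the differences that turned ranged from -0.19 to 1.35 for Ddost, -0.49 to 0.084 for Magt1 and -0.34 to 0.83 for Rpn2 in iCM-Ex minus saline, from -0.44 to 0.37 for Rpn1 and -0.50 to 0.67 for Rpn2 in iCM minus saline, and from -0.041 to 0.57 for Magt1, -0.053 to 0.57 for Rpn2 and -0.054 to 0.79 for Tusc3 in iCM-Ex minus iCM. Dad1, Dpagt1, Stt3b and Ostc kept their signs in all 3 comparisons under the 18 alternatives. Shifts with the covariate cannot be told apart from the group, since control separation did not overlap between the groups. The cause of these and the other shifts was not tested.

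The labels give no link between samples that share a replicate number. The correlation of their deviations from the group means was over 0.1 in 0 of 9 pairs (-0.26 to 0.07). With 3 arrays a group, some of them with markers of other tissues, this cannot exclude a shared batch. Of all genes, 338 were called under the replicate block for iCM minus saline, 18 for iCM-Ex minus iCM and 0 for iCM-Ex minus saline. Under the replicate block 2 of the 10 genes were called for iCM minus saline, 1 for iCM-Ex minus iCM and 0 for iCM-Ex minus saline. The block ended the calls of Dolk (limma adjusted p = 0.0516), Pmm1 (0.06) and Sec61g (0.0533) for iCM minus saline and of Gmppa (0.0594) and Mgat2 (0.056) for iCM-Ex minus iCM.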
